A study of Rattus norvegicus with 6 samples.

Results

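The genes described here encode 10 proteins that fold or modify procollagen in the endoplasmic reticulum, aid propeptide removal or crosslink fibres outside the cell. These genes are Serpinh1, P4ha1, P4ha2, P4ha3, Plod1, Plod2, Lox, Loxl1, Loxl2 and Pcolce. They were chosen by symbol, all 10 had a row among the 17055 gene rows, and all 10 passed the filter on low counts that left 10124 genes for testing. Col1a1 and Col3a1, the genes of the main chains of type I and type III collagen, served as references. The series profiled polyadenylated RNA of pancreatic islets, small organs of hormone-secreting cells, from Sprague-Dawley rats labelled as controls. In the P10 group the islets came from 10-day-old pups, whose sex the labels do not give, and in the adult group from male rats aged 3 months. Each group has 3 libraries that the labels call biological replicates. Whether a library pools several animals is not stated, so the tests use the spread between libraries, which need not be that between single animals. Sex and age cannot be told apart. The series addresses how beta cells, the insulin-secreting cells of the islet, mature after birth.

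Fibrillar collagens are built as long chains that are modified while they are still unfolded. Prolyl 4-hydroxylases (catalytic subunits P4ha1, P4ha2 and P4ha3) hydroxylate prolines, which keeps the triple helix stable at body temperature, and lysyl hydroxylases (Plod1, Plod2 and Plod3) prepare lysines for crosslinking. The chaperone HSP47, product of Serpinh1, binds the folded helix and leaves it in the Golgi. After secretion the propeptides are cut off, a step that the Pcolce protein enhances, and the copper enzymes of the lysyl oxidase family (Lox, Loxl1 and Loxl2) oxidise lysines so that neighbouring chains crosslink. In the pancreas fibrillar collagen is mainly made by fibroblasts and stellate cells, whereas endocrine cells also fold large amounts of other secreted proteins.

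Gene counts per library ran from 3307415 to 6477825, and 3 counts in a library, taken as the floor of detection for counting error only, corresponded to between 0.407 and 1.0995 normalised CPM (reads scaled for library size and composition). The insulin genes took 28.3% to 33.6% of the gene counts at P10 and 46.6% to 52.3% in adults. Markers of fibroblasts were lower in adult islets, with 10 of 11 tested markers past the threshold (a Benjamini-Hochberg false discovery rate, FDR, under 0.05 by quasi-likelihood in edgeR) and a summed level of 587 to 730 CPM (P10) against 149 to 185 CPM (adult), and 1 of the 12 listed, Mfap4, at 0 in every library. Of 8 pericyte and stellate cell markers 7 were lower, at 288 to 358 CPM in sum at P10 against 48.5 to 62.7 in adults. Of 11 endothelial markers 4 were lower (301 to 391 against 188 to 248 CPM), as were 6 of 6 tested duct markers (2790 to 3109 against 963 to 1301 CPM) and 1 of 8 leukocyte markers (119 to 268 against 95.3 to 161.9 CPM). Of 10 acinar markers 3 were higher and 4 lower, with sums of 3018 to 4385 against 1132 to 4467 CPM. Adult replicate 3 stood apart here, with an acinar sum of 4467 CPM against 1132 and 1268 CPM in adult replicates 1 and 2. Of 10 endocrine markers 7 were higher (8028 to 8518 against 12698 to 13287 CPM). The part of these marker lists in the results that follow was not tested, and in whole islets fewer cells of a type and less RNA per cell cannot be told apart.

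The enzymes divided into a set of 5 whose mRNA fell at least 4-fold from P10 to adult islets and a set of 5 that did not pass the test. Serpinh1, P4ha3, Plod2, Lox and Loxl1 fell between 4.70-fold and 14.1-fold, and P4ha1, P4ha2, Plod1, Loxl2 and Pcolce had fitted log2 fold changes between -0.56 and 0.19. Over all genes 13.8% were called lower and 4.25% were called lower by at least 4-fold. No member was called higher in edgeR's test, and the number was also 0 at an unadjusted p under 0.05 and in DESeq2, against 12.5% of all genes called higher. At an unadjusted edgeR p under 0.05, 7 members were lower, with Plod1 and Pcolce added to the 5. The share of all genes lower at that p was not counted. The median log2 fold change of the members was -1.40, beside -0.03 over all tested genes. In 7 of 10 members the libraries of the age groups did not overlap, which was so for 42.3% of all genes. All changes are relative to the bulk of the genes: with library totals in place of composition factors the median of all genes shifted to -0.52, and Loxl2, P4ha1, Plod1 and Pcolce were then also called lower.

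**Figure D1:**
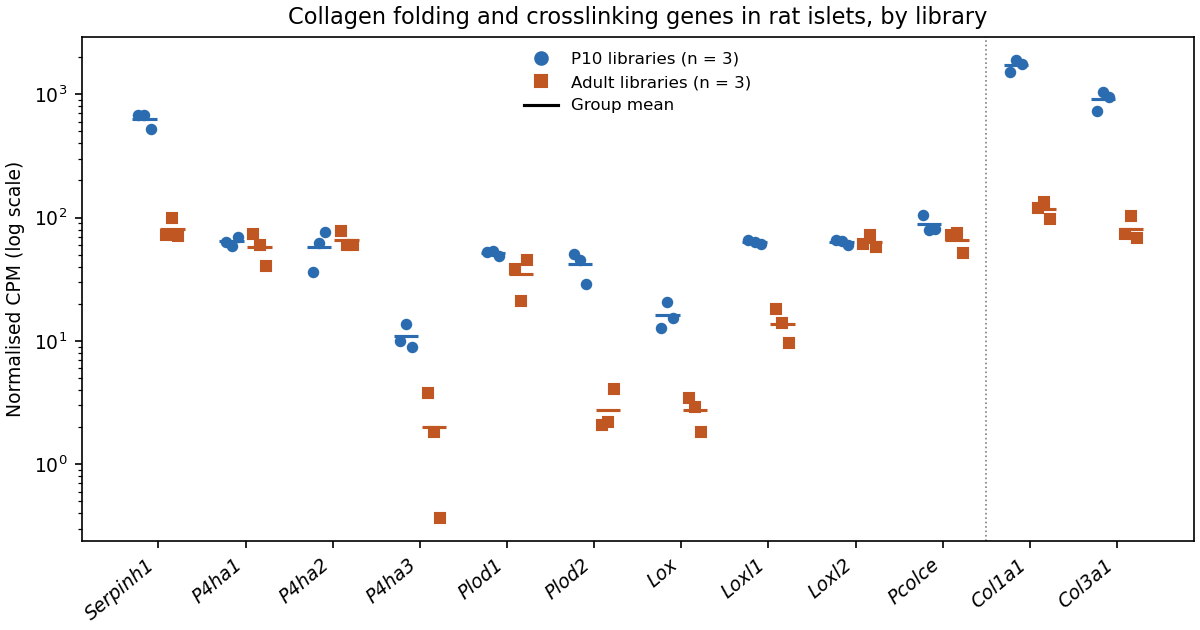
Normalised CPM on a log scale for the 10 members and, right of the dotted line, the 2 reference collagens, with 3 P10 libraries (circles) and 3 adult libraries (squares) per gene and a bar at each group mean. Serpinh1, P4ha3, Plod2, Lox, Loxl1 and both collagens are separated by age, while P4ha1, P4ha2 and Loxl2 overlap.

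The reference collagens set the scale. Col1a1 stood at 1525, 1909.8 and 1777 CPM in P10 replicates 1, 3 and 4, while adult replicates 1, 2 and 3 had 119, 133 and 97.9 CPM. It fell 14.97-fold (log2 fold change -3.90 ± 0.15, SE; edgeR FDR = 8.18e-11). Col3a1 went from 908 ± 159 to 81.5 ± 18.4 CPM (SD, n = 3), an 11.2-fold fall (log2 fold change -3.48 ± 0.18, SE; edgeR FDR = 2.25e-09). By size of fall Col1a1 ranked 86 and Col3a1 118 of the 10124 genes.

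Serpinh1 gave the most reads of the 10 genes in every P10 library. P10 replicates 1, 3 and 4 had 682, 679.9 and 519 CPM, against 71.9, 99.0 and 70.5 CPM in adult replicates 1, 2 and 3. Every P10 library was thus far above every adult library, and the spread within each age was small beside the gap. The fall was 7.83-fold (log2 fold change -2.97 ± 0.16, SE; edgeR FDR = 4.82e-09). Serpinh1 took 57.6% ± 3.48 of the reads of the 10 genes at P10 and 20.7% ± 3.62 in adults (SD, n = 3). The 10 genes together took 0.129% ± 0.0156 of all gene counts at P10 and 0.0328% ± 0.00380 in adults (SD, n = 3). The shares of all gene counts used raw totals without composition factors, so their change is not on the scale of the CPM folds.

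The prolyl 4-hydroxylase subunits did not move together. P4ha1, the subunit that most cell types express, was at 63.9, 59.0 and 70.2 CPM in P10 replicates 1, 3 and 4 and at 73.0, 60.1 and 40.8 CPM in adult replicates 1, 2 and 3. The groups overlapped, with adult replicate 1 the highest of the 6 libraries and adult replicate 3 the lowest (log2 fold change -0.16, 95% interval -0.58 to 0.26; edgeR FDR = 0.595). P4ha2 was at 36.5, 62.0 and 75.7 CPM at P10 and at 78.5, 60.1 and 59.5 CPM in adults. Here P10 replicate 1 stood below the other 5 libraries, and the log2 fold change of 0.19 had a 95% interval from -0.29 to 0.67 (edgeR FDR = 0.584). The sign of this value turned under library totals alone (-0.31) and without P10 replicate 1 (-0.048), and that of P4ha1 without adult replicate 3 (0.057), the library with the acinar sum of 4467 CPM, whose part was not tested.

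P4ha3 gave the fewest reads of the 10 genes over all libraries. It had 74, 92 and 37 reads in P10 replicates 1, 3 and 4 and 11, 5 and 2 reads in adult replicates 1, 2 and 3. In CPM this was 10.04, 13.7 and 8.98 at P10 against 3.80, 1.83 and 0.367 in adults, so the groups did not overlap, and adult replicate 3 lay below the floor of 0.551 CPM in that library. The fall was 5.92-fold (log2 fold change -2.56 ± 0.63, SE; edgeR FDR = 0.00687). With so few adult reads its size rested on single libraries, at 11.3-fold without adult replicate 1 and 3.82-fold without adult replicate 3, in which the part of the acinar sum of 4467 CPM was not tested. The call was lost with the replicate number as a block (edgeR FDR = 0.0643). Only numbers 1 and 3 occur at both ages, so with the block the age term rested on the libraries with those numbers. Over all alternatives the FDR ran from 0.000658 to 0.0643.

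The lysyl hydroxylases differed in the same way. Plod2, the enzyme that hydroxylates lysines in the collagen telopeptides, was at 51.1, 45.6 and 28.9 CPM in P10 replicates 1, 3 and 4. In adult replicates 1, 2 and 3 it was at 2.07, 2.20 and 4.04 CPM, from 6, 6 and 22 reads. The lowest P10 library was several times the highest adult one. Plod2 fell 14.1-fold (log2 fold change -3.82 ± 0.34, SE; edgeR FDR = 8.00e-07), the largest fitted fall of the 10 members, and ranked 95 of all genes.

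Plod1, which acts on lysines of the helix, was at 52.8, 53.6 and 49.0 CPM at P10 and at 38.0, 20.9 and 44.98 CPM in adult replicates 1, 2 and 3. The P10 libraries lay close together and above all adult ones, which were spread over a wide range, with adult replicate 2 the lowest. The log2 fold change of -0.56 (95% interval -1.05 to -0.07) did not pass after adjustment (edgeR FDR = 0.0837). It passed without adult replicate 3 (-0.81, edgeR FDR = 0.0311), where the part of the acinar sum of 4467 CPM was not tested, and under library totals alone (-1.04, edgeR FDR = 0.00329), while over all alternatives the FDR reached 0.393. Plod3, the family's enzyme that also adds sugars to hydroxylysine and was no member, averaged 138 ± 23.6 CPM at P10 and 128 ± 19.0 CPM in adults (SD, n = 3), without passing the test (log2 fold change -0.11, 95% interval -0.44 to 0.22; edgeR FDR = 0.653). Its sign turned without P10 replicate 1 (0.024), and it was called lower under library totals alone (-0.60).

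In the lysyl oxidase family Lox and Loxl1 fell and Loxl2 did not pass the test. Lox, the founding enzyme, was at 12.7, 20.5 and 15.3 CPM at P10 and at 3.46, 2.93 and 1.84 CPM in adults. It fell 6.07-fold (log2 fold change -2.60 ± 0.43, SE; edgeR FDR = 0.000345), from 94, 138 and 63 reads to 10, 8 and 10. Loxl1, the paralogue known for its part in elastic fibres, was at 65.8, 63.3 and 61.2 CPM at P10 and at 18.0, 13.9 and 9.55 CPM in adults. The P10 values were nearly equal, and the fall was 4.70-fold (log2 fold change -2.23 ± 0.23, SE; edgeR FDR = 3.93e-06). Loxl2, known for crosslinking type IV collagen of basement membranes, was at 66.2, 64.0 and 60.2 CPM at P10 and at 61.6, 72.2 and 57.5 CPM in adults. All P10 values lay within the range of the adult values, and the 95% interval of its log2 fold change ran from -0.33 to 0.33 (edgeR FDR = 0.999), which leaves out a change of the size of those of Lox and Loxl1. Under library totals alone Loxl2 was called lower (-0.50, edgeR FDR = 0.0265).

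Pcolce, the enhancer of procollagen C-proteinase, was at 105.5, 78.6 and 81.1 CPM in P10 replicates 1, 3 and 4 and at 72.6, 75.1 and 51.4 CPM in adult replicates 1, 2 and 3. The adult values all lay under the P10 values, by a narrow margin. Its log2 fold change of -0.43 (95% interval -0.81 to -0.05) did not pass (edgeR FDR = 0.0935), except under library totals alone (-0.92, edgeR FDR = 0.000723). The highest FDR over the alternatives was 0.350.

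**Figure D2:**
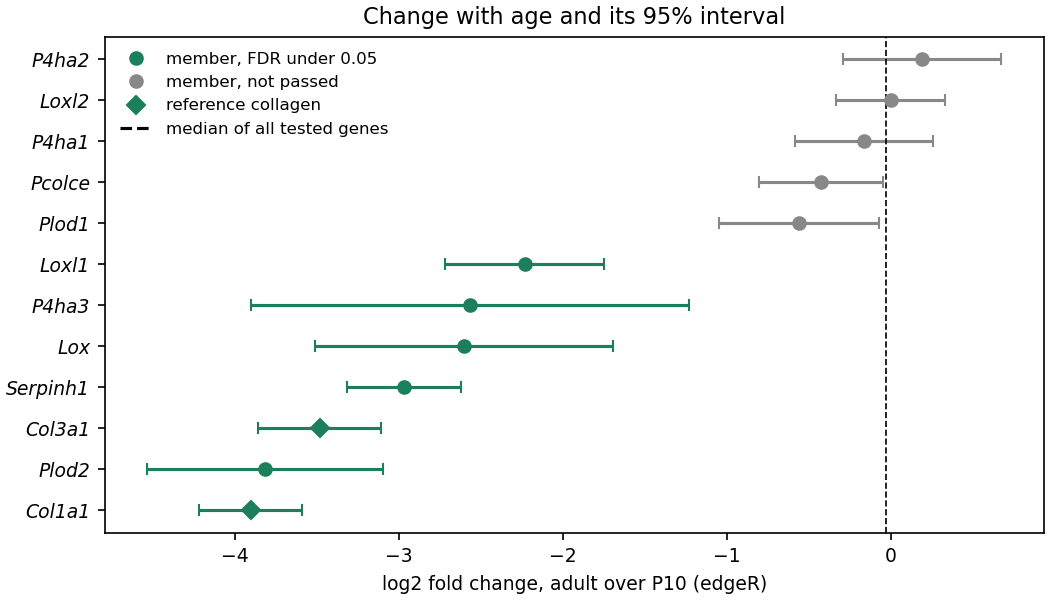
Fitted log2 fold change, adult over P10, with its 95% interval for each member (circles) and each reference collagen (diamonds), and a dashed line at the median of all tested genes. Green symbols passed an FDR of 0.05: 5 members lie between -3.82 and -2.23, the other 5 between -0.56 and 0.19.

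Members called lower and members that did not pass were set side by side by the sequence before their start sites, as RefSeq gives it for the GRCr8 assembly. Of the 10 members 8 had an entry, and 250 bases before the start were searched on both strands. The 4 shown are the pair with the most significant falls among those matched, Serpinh1 and Plod2, and the pair of prolyl hydroxylase genes that did not pass, P4ha1 and P4ha2. They lie at chr1:163062977-163063226 (minus strand), chr8:101964068-101964317 (plus strand), chr20:27844796-27845045 (plus strand) and chr10:38743644-38743893 (plus strand) and are written along the gene. Capitals mark the letters ACGTG or GCGTG, the core of the element bound by hypoxia-inducible factors, and the 3-unit heat shock element, in which GAA and TTC alternate with 2 bases between the units.
Serpinh1: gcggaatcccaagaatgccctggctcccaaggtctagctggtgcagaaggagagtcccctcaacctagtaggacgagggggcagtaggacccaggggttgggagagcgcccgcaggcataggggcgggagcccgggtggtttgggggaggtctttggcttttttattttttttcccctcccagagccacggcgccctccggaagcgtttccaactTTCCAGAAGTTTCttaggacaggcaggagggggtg
Plod2: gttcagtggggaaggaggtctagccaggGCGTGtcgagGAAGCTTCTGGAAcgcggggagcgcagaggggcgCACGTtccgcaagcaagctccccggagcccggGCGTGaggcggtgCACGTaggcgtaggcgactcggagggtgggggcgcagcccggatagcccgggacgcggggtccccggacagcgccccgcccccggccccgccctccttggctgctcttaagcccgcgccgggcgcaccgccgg
P4ha1: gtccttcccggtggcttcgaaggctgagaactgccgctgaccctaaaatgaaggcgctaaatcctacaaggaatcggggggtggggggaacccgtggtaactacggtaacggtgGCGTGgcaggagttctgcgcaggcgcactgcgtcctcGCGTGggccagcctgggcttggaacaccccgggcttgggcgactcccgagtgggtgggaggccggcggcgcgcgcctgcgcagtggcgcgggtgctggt
P4ha2: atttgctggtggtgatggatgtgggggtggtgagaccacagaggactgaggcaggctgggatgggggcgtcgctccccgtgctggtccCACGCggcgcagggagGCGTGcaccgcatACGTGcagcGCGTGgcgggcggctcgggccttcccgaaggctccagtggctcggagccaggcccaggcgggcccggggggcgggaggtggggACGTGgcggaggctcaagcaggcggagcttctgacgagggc

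Serpinh1 and Plod2 held the 3-unit heat shock element, 35 and 212 bases before the start, and it occurred in 0.663% of 33469 promoters of the same length. Loxl1 and P4ha3, also called lower, held neither this element nor the letters ACGTG or GCGTG on either strand. P4ha1, P4ha2, Plod1 and Pcolce did not hold the 3-unit heat shock element either, and Lox and Loxl2 had no entry. A shorter form of 2 units occurred before P4ha2 and Plod1, which did not pass, and in 13.5% of all promoters. It also lay within the 3-unit elements of Serpinh1 and Plod2. Serpinh1 is a classical heat shock gene, as the name HSP47 records. The low-oxygen core occurred 5 times before P4ha2, 4 times before Plod2, 2 times before P4ha1 and once each before Plod1 and Pcolce, and in 36.7% of all promoters. Plod2, which fell 14.1-fold, and P4ha2, which did not pass, therefore carried the most copies of these letters. The GC box GGGCGG was found in 6 of the 8 members, among them P4ha3 with 6 copies, and in 30.5% of all promoters, and the letters CCAAT in none of the 8 and in 34.0% of all. A match is a description of the letters and not of a factor's binding.

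P4ha1, P4ha2, Plod2 and Lox are textbook targets of hypoxia-inducible factors, so other genes induced by low oxygen were set beside them. Of 14 tested genes of that list 4 were higher in adults and 10 did not pass, with a median log2 fold change of 0.10. Over all genes 12.5% were called higher. Slc2a1, the glucose transporter GLUT1, rose 2.20-fold (41.2 ± 3.58 to 90.3 ± 18.4 CPM, SD, n = 3). Vegfa, the endothelial growth factor, rose 1.59-fold and Ndrg1 1.52-fold. Adm also passed and rose most, 7.31-fold (2.86 ± 2.35 to 20.4 ± 6.44 CPM, SD, n = 3, edgeR FDR = 0.00261). Under library totals alone 2 genes of the list were higher and 4 lower, and Vegfa (edgeR FDR = 0.324) and Ndrg1 (edgeR FDR = 0.586) did not pass.

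The ratio of 2 genes within a library needs no scaling, so each member was divided by Col1a1 and by Col3a1, with 0.5 added to each count. The levels of such ratios depend on gene length, and only their change with age is read. For 8 of 10 members the ratio to Col1a1 was higher in every adult library than in every P10 library, and the same number held for Col3a1. Over all other tested genes this was so for 96.2% of the ratios to Col1a1 and 94.9% of those to Col3a1, so the members' 8 of 10 is no more than the background of 2 references that fell more than nearly all genes. The exact two-sided permutation p was 0.1 for each of these 16 ratios, the smallest that 3 against 3 libraries allow, and 0.125 after Benjamini-Hochberg adjustment over the 20 ratios.

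Dividing by Col1a1 adds its fall to the change of every gene, so the order of the differences restates that of the levels, and they are given as a description. Per 100 Col1a1 reads, Loxl2 had 4.35, 3.36 and 3.39 reads in the P10 libraries and 52.0, 54.3 and 58.8 in the adult libraries (replicates in the order above), a log2 difference of 3.90 ± 0.13 (SE). P4ha2 gained 4.14 ± 0.29 and P4ha1 3.72 ± 0.22 on the log2 scale, Pcolce 3.48 ± 0.24 and Plod1 3.25 ± 0.46. Against Col3a1 these 5 gained between 2.83 and 3.72.

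Serpinh1, Lox and Loxl1 fell, but by less than Col1a1. Serpinh1 had 44.7, 35.6 and 29.2 reads per 100 Col1a1 reads at P10 and 60.7, 74.4 and 72.1 in adults, a log2 difference of 0.94 ± 0.20 (SE). The differences were 1.39 ± 0.22 for Lox and 1.67 ± 0.23 for Loxl1. Against Col3a1 they were 0.51 ± 0.23 for Serpinh1, 0.97 ± 0.27 for Lox and 1.25 ± 0.33 for Loxl1. For Serpinh1 this separation was narrow, with 93.5 reads per 100 Col3a1 reads in P10 replicate 1 against 96.4 in adult replicate 2.

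Plod2 tracked Col1a1 most closely in size of change. It had 3.36, 2.39 and 1.63 reads per 100 Col1a1 reads at P10 and 1.89, 1.79 and 4.22 in adults, so the groups overlapped (log2 difference 0.04 ± 0.50, SE; exact two-sided permutation p = 1). Its sign turned without P10 replicate 4 (-0.22) or adult replicate 3 (-0.36) and with 0.1 added to the counts (-0.025). Against Col3a1 its difference was -0.38 ± 0.54 (exact p = 0.6). The ratios of P4ha3 overlapped as well, with log2 differences of 1.09 ± 0.84 to Col1a1 (exact p = 0.4) and 0.67 ± 0.89 to Col3a1 (exact p = 0.6). With 3 libraries a group and few adult reads, a change of these ratios within such errors was not detectable.

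**Figure D3:**
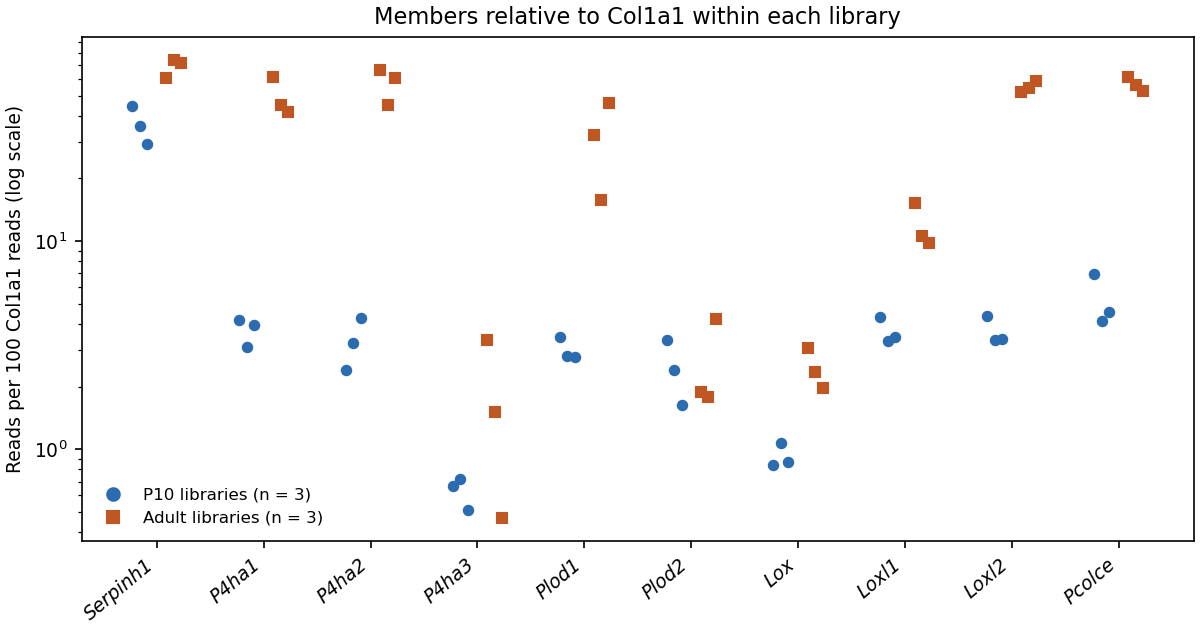
Reads of each member per 100 Col1a1 reads in the same library, on a log scale, with 3 P10 libraries (circles) and 3 adult libraries (squares) per gene. Adult libraries lie above P10 libraries for 8 members and overlap with them for P4ha3 and Plod2; over all other tested genes the ratio to Col1a1 was higher in every adult library for 96.2%.

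Ratios within each enzyme family compared isoenzymes directly. Of 9 such ratios 6 did not overlap between the ages, with an exact two-sided permutation p of 0.1 each and 0.15 after adjustment over the 9. Each of the 6 pairs an enzyme called lower with one that did not pass, so their separation restates the levels and is given as a description. The share of separated ratios over other gene pairs was not computed. Plod1 had 1.03, 1.18 and 1.69 reads for each Plod2 read in the P10 libraries and 17.0, 8.85 and 10.9 in the adult libraries, in the same order. The ratio was higher in every adult library than in every P10 library, with a log2 difference of 3.21 ± 0.35 (SE). The log2 difference of Plod2 to Plod3 was -3.76 ± 0.42 (SE), and the ratio of Plod1 to Plod3 overlapped (-0.54 ± 0.47, exact p = 0.5).

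Loxl1 had 0.994, 0.988 and 1.02 reads for each Loxl2 read at P10, nearly the same in all 3 libraries, and 0.294, 0.195 and 0.167 in adults. The log2 difference was -2.23 ± 0.24 (SE) for this ratio and -2.52 ± 0.32 for Lox to Loxl2. Lox to Loxl1 overlapped between the ages (-0.28 ± 0.22, exact p = 0.4), so the pair fell by amounts that could not be told apart at this depth. P4ha1 and P4ha2 gained 2.62 ± 0.72 and 3.05 ± 0.90 (SE) against P4ha3, whose own call was lost with the replicate block. Without adult replicate 3, which had 2 P4ha3 reads, these differences were 1.98 and 2.24. The ratio of P4ha1 to P4ha2 overlapped (-0.43 ± 0.34, exact p = 0.5).

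**Figure D4:**
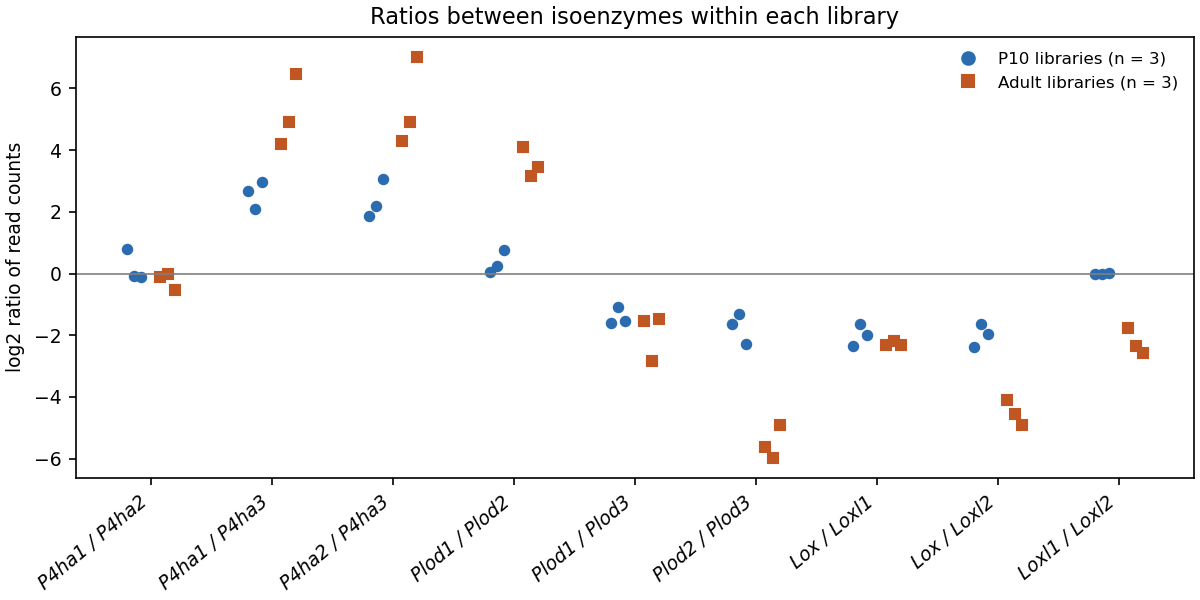
log2 ratio of read counts between enzymes of a family within each library, with 3 P10 libraries (circles) and 3 adult libraries (squares) per ratio. The ages separate for 6 of 9 ratios, each of which pairs an enzyme that fell with one that did not pass, and overlap for P4ha1 to P4ha2, Plod1 to Plod3 and Lox to Loxl1.

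The other proteins that help procollagen fold changed in both directions. Of 8 tested genes 3 fell, 1 rose and 4 did not pass, with a median log2 fold change of -0.62. Fkbp10, a prolyl isomerase that works with HSP47, fell 5.34-fold, from 53.8, 40.3 and 34.7 to 7.26, 8.06 and 8.63 CPM (edgeR FDR = 5.08e-06). Leprel2 and Leprel4, of the prolyl 3-hydroxylase family, fell 1.62-fold and 1.98-fold. The call of Leprel4 was lost with the replicate block and without P10 replicate 1 or any 1 adult library (edgeR FDR from 0.0512 to 0.141).

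P4hb went the other way. It encodes protein disulphide isomerase, which is the beta subunit of prolyl 4-hydroxylase and also a general folding enzyme of the endoplasmic reticulum. It rose 1.64-fold, from 691, 722 and 624 CPM at P10 to 1216, 1029.9 and 1085 CPM in adults (edgeR FDR = 0.000283), but not under library totals alone (0.22, edgeR FDR = 0.244). Ppib, cyclophilin B, averaged 391 ± 28.0 CPM at P10 against 338 ± 21.3 in adults (SD, n = 3; edgeR FDR = 0.204). Lepre1, the prolyl 3-hydroxylase P3H1, averaged 39.3 ± 6.56 against 28.1 ± 2.37 CPM (SD, n = 3; edgeR FDR = 0.0846). Both were called lower under library totals alone. Crtap, the partner of P3H1, had no reads in any library, and whether its row could receive reads was not tested.

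Of 5 other genes of lysine modification and crosslinking 2 fell and 3 did not pass. Tgm2, transglutaminase 2, which forms another kind of crosslink, fell 5.95-fold (121 ± 12.8 to 20.2 ± 2.01 CPM, SD, n = 3; edgeR FDR = 2.59e-08). Glt25d1, a collagen galactosyltransferase, fell 1.71-fold, a call lost without P10 replicate 3 (edgeR FDR = 0.0606) and with the replicate block (edgeR FDR = 0.0830). The remaining lysyl oxidases had few reads, and neither passed. Loxl3 was at 2.44, 5.79 and 3.40 CPM at P10 and at 0.692, 1.10 and 1.84 CPM in adults, without overlap (edgeR FDR = 0.123), and was called lower under library totals alone (edgeR FDR = 0.0356). Loxl4 was at 2.33 ± 1.37 CPM at P10 and 1.40 ± 1.81 CPM in adults (SD, n = 3).

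For export and propeptide removal 3 of 7 tested genes fell and 4 did not pass. Only 11 of the 15 listed genes had a row. Bmp1, the procollagen C-proteinase whose action Pcolce enhances, fell 2.67-fold, from 83.0, 88.0 and 72.1 to 29.4, 31.5 and 30.1 CPM (edgeR FDR = 1.52e-05). The difference in change between Bmp1 and Pcolce was not tested. Sec23a, a coat protein of export vesicles, fell 2.54-fold, and Adamts2, the N-propeptide protease, 6.44-fold. The call of Adamts2 was lost without P10 replicate 3 (edgeR FDR = 0.0511) and with the replicate block (edgeR FDR = 0.113).

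Among 12 genes of fibril assembly and collagen binding 9 fell and 3 did not pass, with a median log2 fold change of -2.61. Postn, the matrix protein periostin, fell 8.02-fold, Bgn, the proteoglycan biglycan, 7.57-fold, and Sparc, a collagen-binding matrix protein, 6.54-fold. Dcn and Lum of this list are also among the fibroblast markers. Of the 7 tested fibrillar collagen chains 5 fell, among them Col5a2 by 9.46-fold, and Col27a1 rose 2.44-fold, from 513 ± 106 to 1248 ± 58.7 CPM (SD, n = 3; edgeR FDR = 7.00e-06). Of 4 tested basement membrane chains 2 fell, Col18a1 4.51-fold and Col4a1 2.98-fold. Only 5 of the 8 listed basement membrane chains had a row. Col1a2, the second chain of type I collagen, had no reads in any library, while Col1a1 had 11242, 12853 and 7320 reads in P10 replicates 1, 3 and 4. Whether the Col1a2 row could receive reads was not tested, so its zeros are not read as absent expression.

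**Figure D5:**
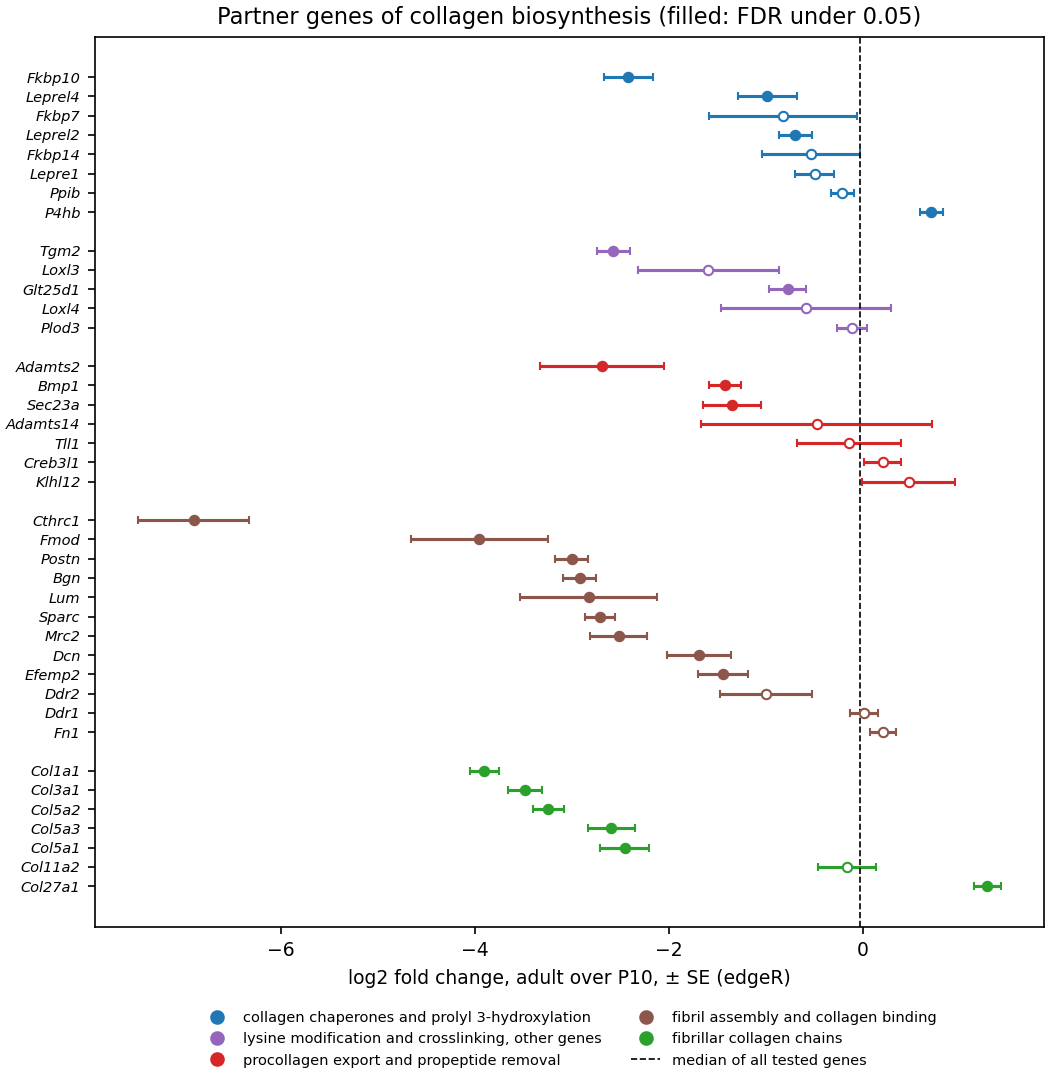
Fitted log2 fold change, adult over P10, with its standard error for the tested partner genes of 5 lists, filled where the FDR was under 0.05, and a dashed line at the median of all tested genes. Most filled points lie at negative values, and P4hb and Col27a1 lie on the positive side.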

How the data were processed

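Single-end libraries of polyadenylated RNA were made without strand information, per the labels' protocols, so reads of overlapping or antisense genes cannot be told apart. The authors deposited raw read counts per gene symbol, 1 file a library. The submitters' processing notes name Bowtie2, TopHat2 2.0.10, HTSeq and the rn5 build. The 5 counter rows of each file entered neither library sizes nor tests. Ambiguous reads made up 0.319% to 0.474%. Reads not uniquely aligned made up 23.4% to 27.7% at P10 and 15.1% to 17.8% in adults. The part of this difference in the results was not tested.

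All 6 libraries were fitted in edgeR 4.0.16 (R 4.3.3) after filterByExpr (minimum count 10, total 15) and trimmed mean of M values (TMM) scaling. The quasi-likelihood test had age as its only term, and p-values were adjusted by Benjamini-Hochberg over the 10124 genes tested (threshold 0.05). Standard errors were taken as |log2 fold change| over the root of F. On simulated data the test called 43 of 100 genes changed 2-fold, 85 of 100 changed 4-fold and 9 of 9685 unchanged genes. A gene that did not pass may therefore still have changed. Ratios used exact permutation tests. Members, lists and markers were chosen with earlier results of these data known. The named genes are the members, the references, any gene of the folding and lysine lists, and of each other list the 3 called genes with the smallest p in the majority direction and 1 in the other. Genes without reads or on 2 lists, and Adm, were named after their values were seen. Whether rows without a read in any library could receive reads was not tested. Listed genes without a row could not be tested. Rows existed for 5 of 6 genes of lysine modification, 10 of 11 fibrillar chains, 15 of 16 low-oxygen genes and 7 of 9 duct markers. Marker genes are given as sums. Alternatives were other scalings and filters, DESeq2 1.42.0, a replicate block, other pseudocounts and leaving out each library. Promoter sequences are RefSeq's for GRCr8, not the rn5 build.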

Additional observations from a re-analysis of the deposited data

How the results depend on the processing

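The number of members called lower was 5 in the reported fit and from 5 to 6 when single libraries were left out, 4 with the replicate block and 9 under library totals alone; the same 5 genes were among those called in every setting but the block, which lost P4ha3. Library totals alone gave 343 genes higher and 3612 lower over all genes, against 1265 and 1394, and the replicate block 679 and 729. The same totals gave 5 lower and 0 higher genes of procollagen folding, 4 lower genes of lysine modification, and 2 higher and 4 lower genes induced by low oxygen. Lysine modification had 1 gene lower with the replicate block and from 1 to 2 without single libraries. Loxl2, at a log2 fold change near 0, had a positive sign with relative log expression factors (0.0089), DESeq2 (0.00995) and no filter (0.0083), and ran from -0.091 to 0.079 without single libraries. Other signs that turned were those of P4ha1 (from -0.36 to 0.057 without single libraries), of P4ha2 (-0.31 under library totals alone, from -0.048 to 0.43 without single libraries) and of Plod3 (from -0.23 to 0.024 without single libraries). The log2 difference of Plod2 to Col1a1 was -0.025 with a pseudocount of 0.1 and ran from -0.36 to 0.30 without single libraries, and that of P4ha3 to Col3a1 from -0.074 to 1.44. The cause of these changes was not tested, except that each left-out library leaves fewer samples. With the replicate block the age term rested on the libraries numbered 1 and 3, the only numbers found at both ages. Deviations of same-numbered libraries from their group means correlated at -0.027 (number 1) and -0.0043 (number 3) over genes, so the replicate numbers were not taken as a pairing. Adult counts of P4ha3, Plod2 and Lox limit the precision of their folds.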
